A study of Mus musculus with 6 samples.

Results

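The genes described here encode 9 receptors through which blood cells of the myeloid and erythroid lineages read growth factors: Kit, Flt3, Csf1r, Csf3r, Csf2ra, Csf2rb, Csf2rb2, Il3ra and Epor. The rule that picked them names them and sets no threshold on a value, although it was written with earlier results of these data known. They were found by gene identifier and symbol among the 55487 genes of a table of normalized read counts from 6 mouse bone marrow RNA-seq libraries. All 6 libraries came from GFP+ cells, per the labels, of the femora and tibiae of CD45.1(+) CD45.2(-) recipient mice that had been given 1000 leukemic bone marrow cells from C57BL/6 donors that were CD45.2(+) and carried Mx1-Cre, Brd9fl/fl and MA9, where MA9 is the MLL-AF9 fusion oncogene, delivered with a GFP tag. Starting on the day after the transplant, recipients had 3 doses, on alternate days, of either PBS (3 libraries) or 20 mg/kg pIpC (3 libraries), and cells were taken 10 days after injection. Polyinosinic-polycytidylic acid (pIpC) is a double-stranded RNA mimic that raises interferon, which switches on Cre from the Mx1 promoter so that floxed exons of Brd9, a subunit of the noncanonical BAF chromatin remodelling complex, can be deleted. The PBS libraries carry the same floxed alleles, Cre transgene and oncogene, so an effect of pIpC itself and one of Brd9 deletion cannot be told apart in this design. The labels and the study's methods differ on the cells (GFP+ against c-Kit+), on the library kit (unstranded against stranded) and on the irradiation of the recipients, which all groups share and which the labels give as lethal, 450 cGy applied 2 times, and the methods as sublethal. The labels do not tie each library to 1 animal, so p-values measure only the spread between these libraries.

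Cytokine receptors are membrane proteins that dimerize when a growth factor binds. Kit, Flt3 and Csf1r are receptor tyrosine kinases with a kinase domain of their own, whereas Csf3r, Epor and the receptors for GM-CSF and IL-3 lack one and signal through bound Janus kinases to STAT proteins. GM-CSF and IL-3 are each bound by a private alpha chain (Csf2ra and Il3ra), which pairs with the common beta chain Csf2rb. The mouse has a second beta chain, Csf2rb2, that serves IL-3 alone. Early progenitors are known for Kit and Flt3, macrophages for Csf1r, neutrophils for Csf3r, and erythroid progenitors for Epor.

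Recovered reads on genes ranged from 19277439 to 22378154 in the PBS libraries and from 22348517 to 23586722 in the libraries labelled pIpC. Brd9 itself, as a whole-gene count, was 1835 ± 176 in PBS against 2103 ± 139 (SD, n = 3 each) where labelled pIpC (log2 fold change 0.20, 95% confidence interval -0.10 to 0.50, adjusted p = 0.259 from limma). It was thus not lower where the label says pIpC. Its libraries did not overlap between groups, with those labelled pIpC higher, as for 30.5% of all genes tested. The floxed exons are only part of the gene, so this count cannot show whether they were deleted. The groups are called by their label throughout. PBS replicate 3 stood apart from the other two PBS libraries: the chi-square statistic per gene was 6.30 between PBS replicates 1 and 2, 194 between 1 and 3, and 171 between 2 and 3, against 7.93 to 16.8 among the libraries labelled pIpC. Hoxa9, a homeobox gene that MLL fusions keep active, averaged 5130 ± 195 normalized counts in PBS and 256 ± 28.4 in the libraries labelled pIpC (SD, n = 3 each), and the latter also held more marker RNA of other cell types, given below beside the receptors that those cells express. In bulk RNA, fewer cells of a type and less RNA per cell cannot be told apart.

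Of the 9 receptor genes, 4 were higher in the libraries labelled pIpC (Flt3, Csf3r, Csf2rb and Epor), 2 were lower (Csf2ra and Il3ra) and 3 did not pass the test (Kit, Csf1r and Csf2rb2). The call was an adjusted p under 0.1 from limma with Benjamini-Hochberg adjustment over the 15020 genes with a mean of at least 10 normalized counts, fitted to log2(normalized count + 1). By the same rule 45.3% of all genes tested were called, 25% higher and 20.4% lower. The same 6 receptor genes had libraries that did not overlap between groups, 4 higher and 2 lower, as did 56.8% of all genes tested, 30.5% higher and 26.3% lower. Without PBS replicate 3, 7 receptor genes were called, Kit among the lower ones. The median log2 fold change over the 9 receptors was 0.46, against 0.015 over all genes. Epor reached the count minimum only through the libraries labelled pIpC, so it had to differ between groups, and without it the median was 0.27. The other 8 were above it in both groups, and 7 of the 9 had at least 500 recovered reads in every library.

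**Figure D1:**
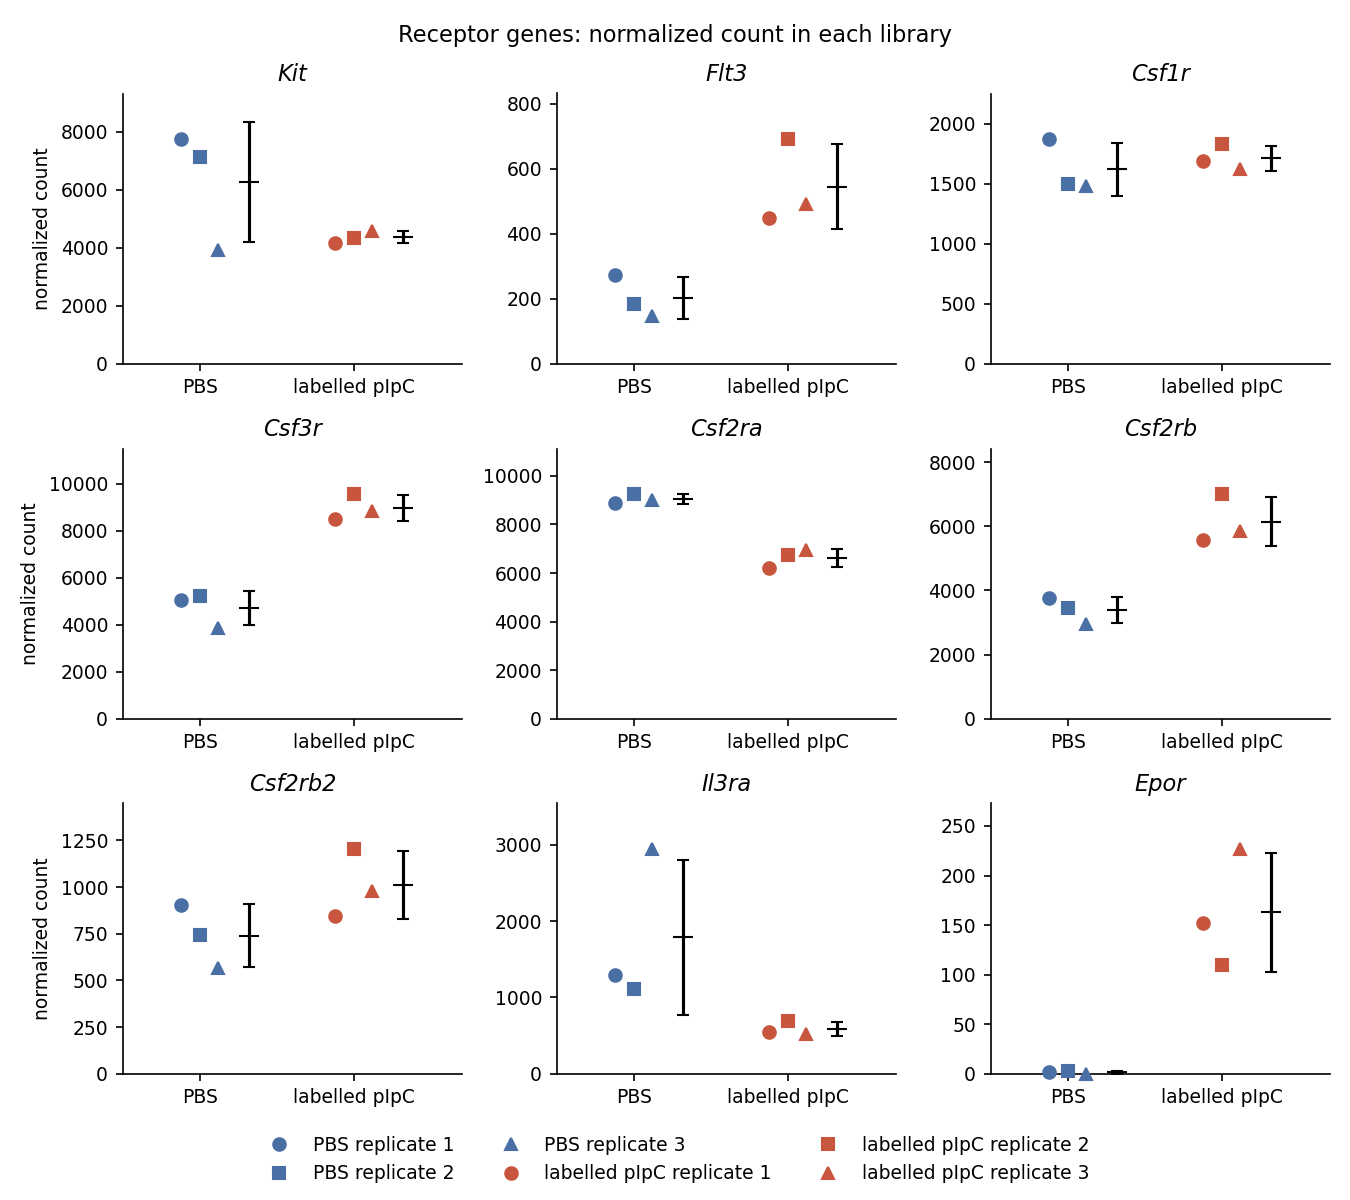
Normalized count (vertical axes, each starting at 0) of the 9 receptor genes in the 3 PBS libraries (blue) and the 3 libraries labelled pIpC (red), with the mean and SD of each group in black beside the points. Groups separate for Flt3, Csf3r, Csf2ra, Csf2rb, Il3ra and Epor, and overlap for Kit, Csf1r and Csf2rb2; PBS replicate 3 (triangle) has the lowest Kit count, 3912.2, and the highest Il3ra count, 2950.3.

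Kit, the receptor for stem cell factor on stem and progenitor cells and mast cells, lies on the plus strand of chromosome 5 (75574916 to 75656722 in GRCm38). Counts after normalization were 7764.4, 7118.7 and 3912.2 for PBS replicates 1, 2 and 3, and 4155.9, 4341.1 and 4588.4 in libraries labelled pIpC replicates 1, 2 and 3. PBS replicates 1 and 2 were above all libraries labelled pIpC, and PBS replicate 3 was below all of them. Over all 6 libraries Kit did not pass the test, with a log2 fold change of -0.46 with a standard error of 0.26 (95% confidence interval -1.09 to 0.16, adjusted p = 0.213). Without PBS replicate 3 it passed, at -0.77 (adjusted p = 2.39e-05). The coefficient of variation of Kit was 32.9% in PBS and 4.97% in the libraries labelled pIpC. If the cells were selected on c-Kit, as the study's methods say, Kit is the gene of that gate and its level between groups is no finding.

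Flt3, the receptor for FLT3 ligand on lymphoid-primed and dendritic progenitors, is on the minus strand of the same chromosome (147330741 to 147400489). It had 274.3, 184.2 and 147.1 normalized counts in PBS and 449.1, 692.7 and 490.3 in the libraries labelled pIpC. The lowest library labelled pIpC was above the highest PBS library. The mean rose from 201.9 ± 65.4 to 544.0 ± 130.4 (SD, n = 3 each), a log2 fold change of 1.45 with a standard error of 0.28 (adjusted p = 0.00721). Among all genes tested, the size of this change stood at the 79.9th percentile. Markers of dendritic cells, which express Flt3, moved with it: 9 of 10 were higher and none lower, 6 of them with a PBS mean under the count minimum of 10, so that they entered the test only through the libraries where they were high. The list had a summed normalized count of 757 to 1632 in PBS and 4234 to 6616 in the libraries labelled pIpC. Markers of B cells, whose early progenitors express Flt3, had 12 of 12 higher, 10 of them entering the test in that way, at 145 to 307 against 1593 to 2905, with Ms4a1 at 0 in all PBS libraries. The part of either in the Flt3 level was not tested.

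Csf1r, the receptor for CSF1 and IL-34 on monocytes and macrophages (chromosome 18, 61100598 to 61132149), had 1876.6, 1500.1 and 1480.2 normalized counts in PBS and 1688.7, 1828.8 and 1624.6 in the libraries labelled pIpC. Its groups overlapped: PBS replicate 1 was the highest of the 6 libraries and PBS replicates 2 and 3 were the lowest. The log2 fold change was 0.09 with a standard error of 0.14 (95% confidence interval -0.24 to 0.42, adjusted p = 0.639), and its size stood at the 9.29th percentile of all genes tested. Quantile normalization turned its sign, to -0.061, still short of the threshold. Of the 5774 bases covered by its exons, 873 (15.1%) are shared with Hmgxb3 on the opposite strand, so in unstranded counts reads from these bases cannot be assigned to one or the other gene. The list of 12 monocyte and macrophage markers did not move as a block beside it, with 8 higher and 4 lower. F13a1, a transglutaminase subunit of monocytes, was the highest of them, at a log2 fold change of 4.88, and Adgre1, the macrophage antigen F4/80, was the lowest, at -3.80. Their summed normalized count was 40000 to 40926 in PBS and 44633 to 48584 in the libraries labelled pIpC.

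Csf3r, the G-CSF receptor of neutrophils and their precursors, lies on chromosome 4 (126024550 to 126044440). Normalized counts were 5057.2, 5218.9 and 3874.8 in PBS and 8484.5, 9589.5 and 8852.9 in the libraries labelled pIpC. Every library labelled pIpC was above every PBS library, at a mean of 8976 ± 563 against 4717 ± 734 (SD, n = 3 each), a log2 fold change of 0.94 with a standard error of 0.16 (adjusted p = 0.00366). Of 12 neutrophil markers, 11 were higher in the same libraries and none was lower, with a median log2 fold change of 6.56. Ly6g, a surface antigen of mature neutrophils, rose by 8.23 on the log2 scale, whereas Elane, the elastase of promyelocytes, was at -0.45 and did not pass (adjusted p = 0.281), although under quantile normalization it did, at -0.78 (adjusted p = 0.00134). The summed count of the list was 69461 to 147725 in PBS and 2088878 to 2158977 in the libraries labelled pIpC. The change of Csf3r was smaller than that list's median, and the part of neutrophils in it was not tested.

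The GM-CSF receptor genes moved in opposite directions. Csf2ra, the alpha chain (chromosome 19, 61223957 to 61228429), had 8879.7, 9273.7 and 8991.1 normalized counts in PBS and 6218.9, 6736.0 and 6931.4 in the libraries labelled pIpC. All PBS libraries were above all libraries labelled pIpC, and the PBS libraries were closer to each other than for the other 8 receptors, with a coefficient of variation of 2.24%. The log2 fold change was -0.45 with a standard error of 0.12 (adjusted p = 0.0233). Csf2rb, the common beta chain (chromosome 15, 78325752 to 78353847), had 3765.4, 3453.6 and 2967.2 in PBS and 5563.2, 7025.1 and 5863.9 in the libraries labelled pIpC. Here all PBS libraries were the lower ones, with a log2 fold change of 0.86 with a standard error of 0.15 (adjusted p = 0.00486).

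Il3ra, the IL-3 receptor alpha chain (chromosome 14, 14346275 to 14356011), had 1295.2, 1108.3 and 2950.3 normalized counts in PBS and 544.9, 691.7 and 516.4 in the libraries labelled pIpC. The groups did not overlap, but PBS replicate 3 was above every other library, and the coefficient of variation in PBS was 56.8%. The log2 fold change was -1.48 with a standard error of 0.37 (adjusted p = 0.0197), and without PBS replicate 3 it was -1.05 (adjusted p = 0.000174). Mast cells and basophils respond to IL-3. Of 7 tested markers of these cells, 5 were higher, 1 (Gata2, at -1.18) was lower and 1 was not called, and 2 of the higher ones entered the test only through the libraries labelled pIpC. Prss34, a basophil protease, was at 0, 1.01 and 0 in PBS and at 2658, 1829 and 2152 in the libraries labelled pIpC, while Mcpt4 and Tpsb2, defining proteases of mast cells, were at 0 in all 6 libraries. Cma1, another listed mast cell protease, was at 0 in all PBS libraries but not in all libraries labelled pIpC, and was too low to be tested. The summed level of the list was 4435 to 6789 in PBS and 10960 to 13092 in the libraries labelled pIpC, with Fcer1a, the IgE receptor alpha chain, at 0 in all PBS libraries. Il3ra was lower in the libraries in which this list was higher, and the part of such cells in it was not tested.

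Csf2rb2, the IL-3-specific beta chain next to Csf2rb on chromosome 15 (78282507 to 78305721), had 905.9, 744.0 and 568.1 normalized counts in PBS and 843.4, 1206.6 and 979.6 in the libraries labelled pIpC. PBS replicate 1 lay within the range of the libraries labelled pIpC, and the other two PBS libraries lay below it. The log2 fold change was 0.46 with a standard error of 0.22 (95% confidence interval -0.06 to 0.98, adjusted p = 0.145) and did not pass, but it did without PBS replicate 1, at 0.62 (adjusted p = 0.0777). Both beta chain genes are near-identical in part: 163 words as long as a read occur in the exons of both, 3.29% of the words of Csf2rb2 and 2.27% of those of Csf2rb. Of words of 50 bases, 892 occur in both, 18.4% of those of Csf2rb2 and 12.3% of those of Csf2rb. The split of reads between the beta chain genes is therefore uncertain, and so is the ratio of their counts. Their counts taken as 1 gene were higher in the libraries labelled pIpC, at 0.79 (adjusted p = 0.00885), a value in which Csf2rb, the more abundant, has most of the reads.

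Epor, the erythropoietin receptor (chromosome 9, 21958897 to 21963506, minus strand), was the receptor with the largest difference among the 9. It had 2, 3 and 0 recovered reads in PBS replicates 1, 2 and 3 and 152, 107 and 235 in the libraries labelled pIpC. In normalized counts that was 1.73, 3.04 and 0 against 151.7, 109.3 and 227.2. Taken over the groups, 5 reads stood against 494, a ratio of 99.2 with an exact 95% interval of 42.2 to 307 that covers counting error only. The fitted log2 fold change was 6.14 with a standard error of 0.59 (adjusted p = 0.000313) and moved with the pseudocount, to 7.55 with 0.1 and to 3.85 with 10.

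Markers of erythroid cells, which are known for Epor, rose in the same libraries. Of 12 listed, 11 were in the table and all 11 were higher, but 9 of them entered the test only through the libraries labelled pIpC. The adult beta globin gene Hbb-bs had 0.865, 1.01 and 2.26 normalized counts in PBS and 1134, 679 and 791 in the libraries labelled pIpC. Slc4a1 (band 3) and Rhag, membrane proteins of red cells, were at 0 in all PBS libraries. Tfrc, the transferrin receptor of dividing cells, rose least, by 0.67 on the log2 scale (adjusted p = 0.0416), and did not pass once any 1 library labelled pIpC was left out (adjusted p = 0.14, 0.112 and 0.105). The summed level of the list was 1848 to 3073 in PBS and 8309 to 10997 in the libraries labelled pIpC. Megakaryocyte markers were higher in 9 of 9 tested, 5 of them entering the test in the same way, at 401 to 562 against 1728 to 2587, with Ppbp, Gp1bb, Gp6 and Treml1 at 0 in all PBS libraries. Whether such cells carried the Epor reads was not tested.

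**Figure D2:**
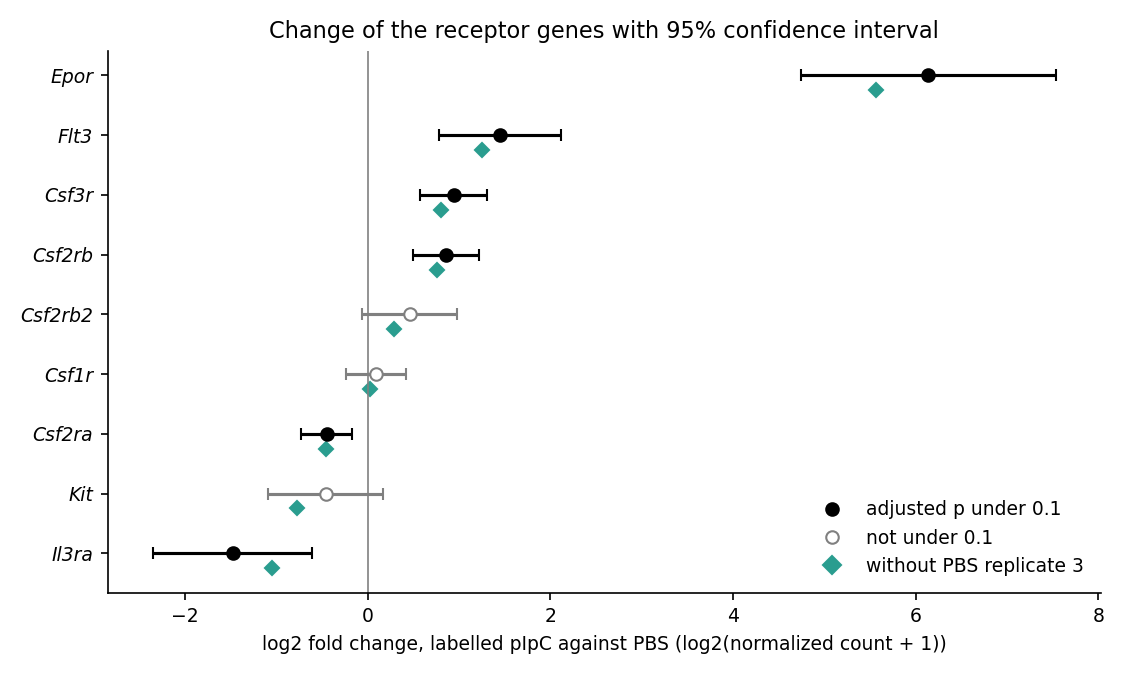
Log2 fold change of each receptor gene, libraries labelled pIpC against PBS, on log2(normalized count + 1), with its 95% confidence interval (circles: filled where the adjusted p from limma was under 0.1) and the value without PBS replicate 3 (diamonds). Values run from -1.48 for Il3ra to 6.14 for Epor, and leaving out PBS replicate 3 moves Kit from -0.46 to -0.77 and Il3ra from -1.48 to -1.05.

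Promoter sequence is shown for the receptor with the largest difference and for 2 whose call changed when 1 library was left out, each as a stretch upstream of the start of the gene, 5′ to 3′ on the strand of the gene, from RefSeq on GRCm38.p6. Capitals mark matches to motifs of blood cell transcription factors. The Epor stretch is chr9:21963577-21963826 on the minus strand, the Kit stretch chr5:75574737-75574915 on the plus strand, and the Csf2rb2 stretch chr15:78305722-78305971 on the minus strand.
Epor: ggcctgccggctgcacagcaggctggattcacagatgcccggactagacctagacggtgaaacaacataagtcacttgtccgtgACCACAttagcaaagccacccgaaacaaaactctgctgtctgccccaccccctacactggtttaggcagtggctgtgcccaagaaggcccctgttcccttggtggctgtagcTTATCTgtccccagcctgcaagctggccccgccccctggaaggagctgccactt
Kit: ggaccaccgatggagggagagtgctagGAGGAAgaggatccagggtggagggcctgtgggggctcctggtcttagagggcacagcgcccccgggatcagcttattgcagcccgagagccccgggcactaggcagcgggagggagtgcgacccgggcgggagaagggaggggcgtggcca
Csf2rb2: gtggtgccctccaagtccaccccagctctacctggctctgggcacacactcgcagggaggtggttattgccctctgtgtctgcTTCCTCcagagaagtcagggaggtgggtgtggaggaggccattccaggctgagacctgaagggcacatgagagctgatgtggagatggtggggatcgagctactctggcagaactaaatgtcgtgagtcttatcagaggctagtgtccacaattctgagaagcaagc

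In the Epor stretch, capitals mark TTATCT, the reverse strand form of the GATA motif AGATAA, 54 bases before the RefSeq start, and ACCACA, the reverse strand form of the RUNX motif TGTGGT, 166 bases before it. In the Kit stretch they mark the PU.1 core GAGGAA 223 bases before the RefSeq start. For Kit that start lies inside the gene as placed above, and the printed stretch, of 179 bases, ends where the gene begins. In the Csf2rb2 stretch capitals mark the reverse strand form of the PU.1 core, TTCCTC, 167 bases before the RefSeq start. Windows of 300 bases around the starts of 7 receptor genes were searched on both strands for these 3 motifs, for the C/EBP motif TTGCNNAA and for the E-box CACGTG. The PU.1 core was found in 4 of the 7 (Kit, Csf3r, Csf2ra and Csf2rb2) and in 28.3% of all 32851 windows of that length. The GATA and RUNX motifs were each found in Epor alone among the 7, and in 11.2% and 16.8% of all windows. The C/EBP motif was found in Il3ra (10.8% of all windows) and the E-box in Flt3 (7.15%). A match describes letters in the window and shows no binding.

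RNA levels of the factors named after these motifs differed among themselves. Of 14 transcription factors known to act on receptor genes, 6 were higher, 5 were lower and 3 were not called, and 1 of the higher ones, Tal1, entered the test only through the libraries labelled pIpC. Tal1, a factor of erythroid and megakaryocytic cells, was the highest, at 3.46, 3.04 and 3.39 normalized counts in PBS and 669, 667 and 671 in the libraries labelled pIpC. Hoxa9 was the lowest, at a log2 fold change of -4.32 with a standard error of 0.13 (adjusted p = 1.27e-05). The following were looked up after their values were seen. Gata1, which drives erythroid genes, rose from 14.0 ± 1.60 to 260 ± 46.4 (SD, n = 3), by 4.11 on the log2 scale. Gata2, a GATA factor of stem cells and mast cells, was the more abundant in PBS and went the other way, from 1407 ± 184 to 618 ± 20.4 (SD, n = 3), at -1.18 (adjusted p = 0.000717). Spi1, which encodes PU.1, was at -0.09 and did not pass (95% confidence interval -0.64 to 0.46, adjusted p = 0.776). Runx1 did not pass either, at -0.24 (adjusted p = 0.179), and Cebpa, a factor of granulocyte commitment, was higher, at 0.53 (adjusted p = 0.0428), while Cebpb was at -0.54 and did not pass (adjusted p = 0.135).

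The levels of different receptors were compared per kilobase of exon, within each group. In PBS, Csf2ra was the highest, at 3152 ± 70.7 normalized counts per kilobase, followed by Csf3r at 1307 ± 203, Kit at 703 ± 232, Il3ra at 601 ± 342, Csf2rb at 467 ± 55.3, Csf1r at 280 ± 38.7, Csf2rb2 at 156 ± 35.6, Flt3 at 32.7 ± 10.6 and Epor at 0.80 ± 0.77 (SD, n = 3). Neighbours in this order were apart in every library, except that Kit overlapped Il3ra and Il3ra overlapped Csf2rb. In the libraries labelled pIpC, Csf3r at 2487 ± 156 and Csf2ra at 2309 ± 128 led and overlapped each other. Csf2rb followed at 845 ± 106, then Kit at 489 ± 24.3, Csf1r at 297 ± 18.1, Csf2rb2 at 213 ± 38.7, Il3ra at 197 ± 31.7, Flt3 at 88.1 ± 21.1 and Epor at 81.8 ± 30.0. Csf2rb2 and Il3ra overlapped there, as did Flt3 and Epor.

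The place of Il3ra above Csf2rb in the PBS order came from PBS replicate 3, since in replicates 1 and 2 Il3ra, at 437 and 374 per kilobase, was below Csf2rb, at 517 and 475. Read against the levels per kilobase of all genes tested, Csf2ra stayed near the top (97.9th percentile in PBS and 97.2nd in the libraries labelled pIpC), Il3ra went from the 87.6th to the 65.4th percentile, and Epor from the 3.90th to the 44.8th. Of the 36 pairs of receptors, 33 did not overlap in PBS and 33 did not in the libraries labelled pIpC. With the longest transcript as the length, these were 31 and 33, Csf3r and Kit overlapped in PBS, and the overlapping pairs Csf3r with Csf2ra and Csf2rb2 with Il3ra changed places in the libraries labelled pIpC.

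**Figure D3:**
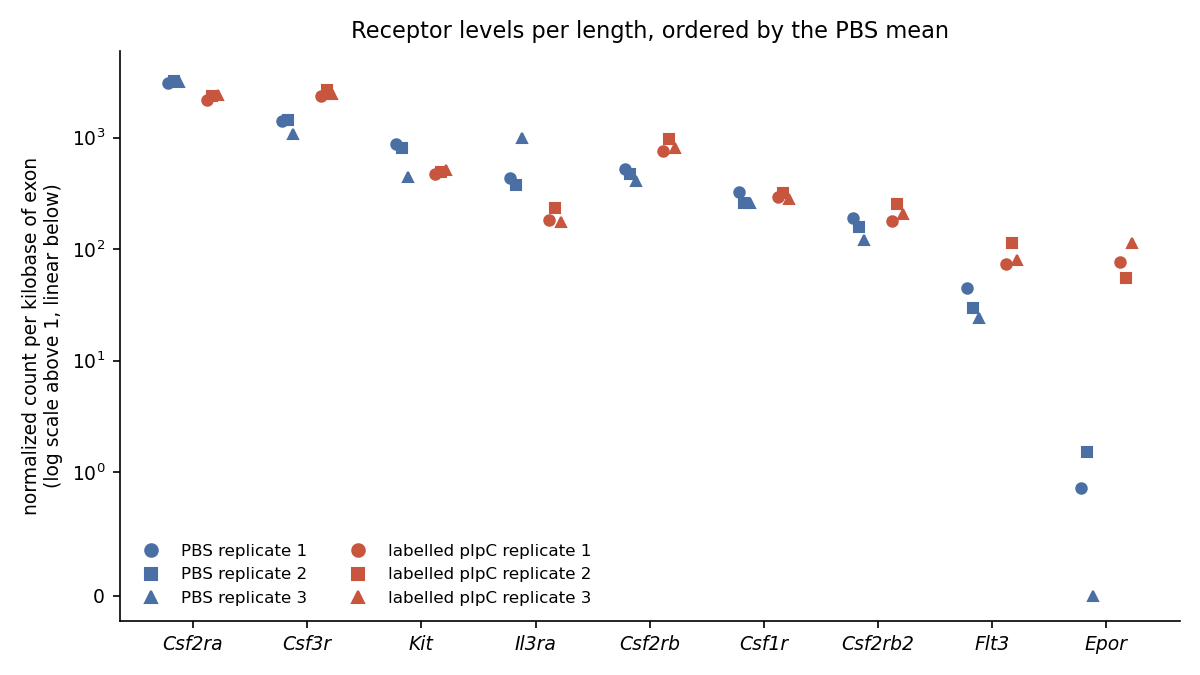
Normalized count per kilobase of exon (log axis above 1, linear below) of the 9 receptor genes in each of the 6 libraries, in the order of their PBS means. Csf2ra leads in PBS at 3152 and Csf3r in the libraries labelled pIpC at 2487, while Epor goes from 0.80 to 81.8.

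A ratio of a pair of counts within a library does not depend on how the libraries were scaled, and 6 ratios were compared. The ratios below are of the counts themselves, and the log2 differences, the tests and the folds from them had 1 added to each count. The libraries of the groups did not overlap in any of the 6, and each gave p = 0.1 in an exact 2-sided permutation test (0.1 after Benjamini-Hochberg adjustment), the smallest p that 3 libraries against 3 allow. Of all single genes tested, 56.8% did not overlap either, and the share over all pairs of genes was not computed. Several of the ratios share a gene, so they are not independent of each other. The ligand-binding chain Csf2ra had 2.36, 2.69 and 3.03 counts for each count of its signalling partner Csf2rb in PBS and 1.12, 0.959 and 1.18 in the libraries labelled pIpC. In counts, the libraries labelled pIpC were thus near parity, with a difference from PBS of -1.31 on the log2 scale. Per kilobase of exon, Csf2ra stayed above Csf2rb in these libraries, at 2309 ± 128 against 845 ± 106 (SD, n = 3), without overlap. Il3ra over Csf2rb was 0.344, 0.321 and 0.994 in PBS and 0.098, 0.0985 and 0.0881 in the libraries labelled pIpC. Its difference, -2.34 on the log2 scale (a 5.05-fold lower ratio), was the largest of the 6 and was -1.81 without PBS replicate 3. In that library the counts of Il3ra and Csf2rb were near equal, but per kilobase of exon Il3ra was at 994 and Csf2rb at 408. Of the alpha chains, Il3ra over Csf2ra differed by -1.03, or by -0.59 without PBS replicate 3.

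Among the tyrosine kinases, Kit had 28.3, 38.6 and 26.6 counts for each count of Flt3 in PBS and 9.25, 6.27 and 9.36 in the libraries labelled pIpC, a 3.76-fold lower ratio. PBS replicate 3, which had the lowest Kit count, did not stand apart in this ratio, since its Flt3 count was also the lowest. Csf3r over Csf1r, the neutrophil against the macrophage receptor, was 2.69, 3.48 and 2.62 in PBS and 5.02, 5.24 and 5.45 in the libraries labelled pIpC, a 1.80-fold higher ratio. The beta chains had the smallest difference of the 6: Csf2rb2 over Csf2rb was 0.241, 0.215 and 0.191 in PBS and 0.152, 0.172 and 0.167 in the libraries labelled pIpC, a difference of -0.40 on the log2 scale.

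**Figure D4:**
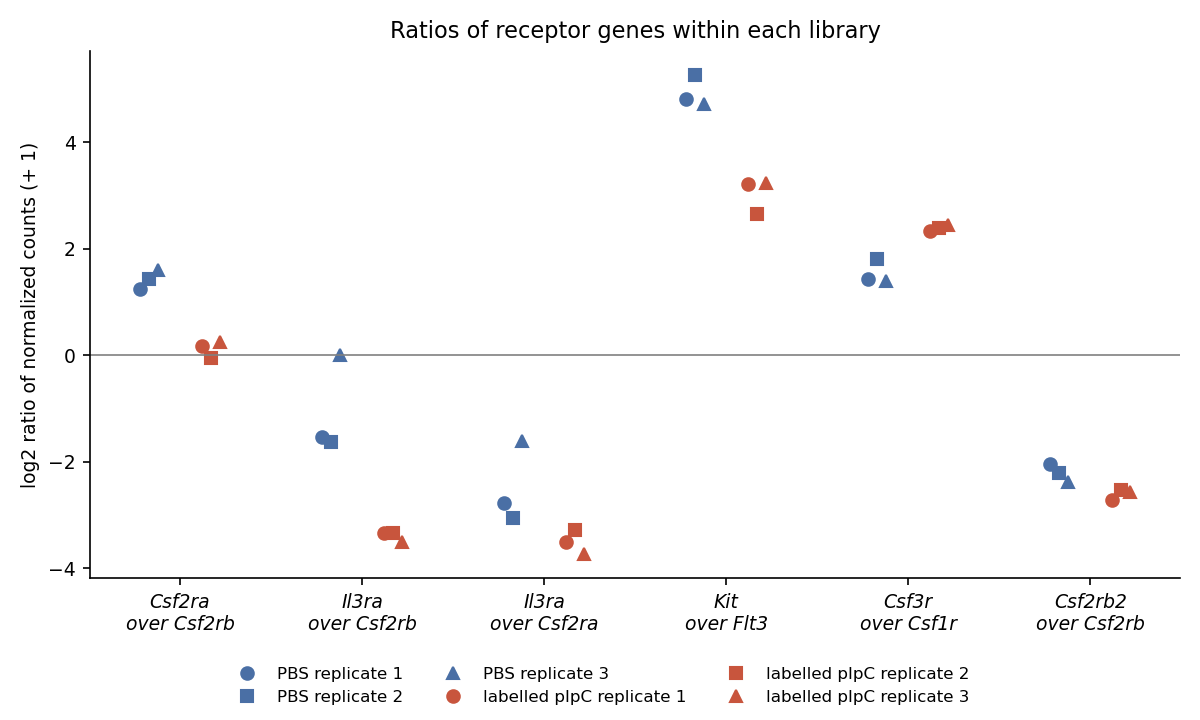
Log2 ratio of the normalized counts (+ 1) of 6 pairs of receptor genes within each library, PBS in blue and labelled pIpC in red. The groups do not overlap in any pair, and the difference of the group means runs from -2.34 for Il3ra over Csf2rb to 0.85 for Csf3r over Csf1r.

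The ligands of these receptors were mostly near 0 in the cells themselves. Of 10 ligand genes, 3 were tested. Kitl was higher but entered the test only through the libraries labelled pIpC, Csf1 was higher from a level above the minimum in both groups, and Flt3l was not called. Kitl, stem cell factor, had 3.46, 3.04 and 1.13 normalized counts in PBS and 45.9, 30.7 and 54.2 in the libraries labelled pIpC. Counted in reads that was 8 against 132, a ratio of 16.6 (exact 95% interval 8.17 to 39.2, counting error only). Csf1, the ligand of Csf1r, rose from 92.0 ± 21.8 to 249 ± 19.6 (SD, n = 3 each), a log2 fold change of 1.45 with a standard error of 0.23 (adjusted p = 0.00304), while its receptor did not pass the test. Flt3l was at 156 ± 46.2 and 206 ± 28.8 and did not pass over all libraries (0.43, adjusted p = 0.23). Csf3, the ligand of Csf3r, reached at most 3.04 counts in any library and Csf2, GM-CSF, at most 2.26. Il3 and Epo were at 0 in all 6.

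Of 35 other cytokine receptor genes, 30 were tested: 18 were higher, 4 were lower and 8 were not called. Of the higher ones, 6 entered the test only through the libraries labelled pIpC, and the 24 genes above the minimum in both groups had 12 higher and 4 lower, with a median log2 fold change of 0.55. The highest was Il18r1, the IL-18 receptor chain, with 0.865, 9.11 and 2.26 normalized counts in PBS and 638, 648 and 763 in the libraries labelled pIpC. The lowest was Crlf2, the receptor chain for TSLP, at 1520 ± 505 and 815 ± 95.9 (SD, n = 3), which was -0.86 on the log2 scale (adjusted p = 0.0295) and did not pass without pIpC replicate 1 (adjusted p = 0.108) or 2 (adjusted p = 0.1). Named after their values were seen, the other 3 that fell were Ifngr1, the interferon gamma receptor (-0.68), Il21r (-0.61) and Il10rb (-0.49). Il6st, the gp130 chain shared by IL-6 type receptors, was also chosen after its values were seen and went from 69.1 ± 11.1 to 1183 ± 62.1 (SD, n = 3).

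Other receptor tyrosine kinases had 10 higher, 2 lower and 1 not called of 13 tested, but 4 of the higher and 1 of the lower ones were above the minimum in 1 group only. The other 8 had 6 higher, 1 lower and 1 not called. Axl, a receptor for Gas6, was the highest (25.1, 54.7 and 14.7 against 683, 490 and 835 normalized counts) and Pdgfrb, a PDGF receptor, the lowest, with a log2 fold change of -1.62 with a standard error of 0.24 (adjusted p = 0.00216). Of 30 proximal signalling genes, 16 were higher, none was lower and 14 were not called, and 2 of the higher ones, Socs2 and Socs3, entered the test only through the libraries labelled pIpC. Socs3, a feedback inhibitor that STAT3 induces and that acts on Csf3r, was the highest, with 2.60, 0 and 2.26 normalized counts in PBS and 71.9, 130 and 41.6 in the libraries labelled pIpC. The following were chosen after their values were seen. Jak2, the kinase bound by Epor, Csf2rb and Csf3r, was higher at 0.73 (adjusted p = 0.00438). Jak1 at 0.73 (adjusted p = 0.0259) and Stat3 at 0.91 (adjusted p = 0.0146) were also higher, while Jak3 (adjusted p = 0.65) and Tyk2 (adjusted p = 0.473) did not pass. The STAT5 genes that lie downstream of Jak2 did not pass, Stat5a at -0.13 (adjusted p = 0.508) and Stat5b at 0.53 (adjusted p = 0.142). The Stat5b libraries did not overlap between groups, with those labelled pIpC higher.

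**Figure D5:**
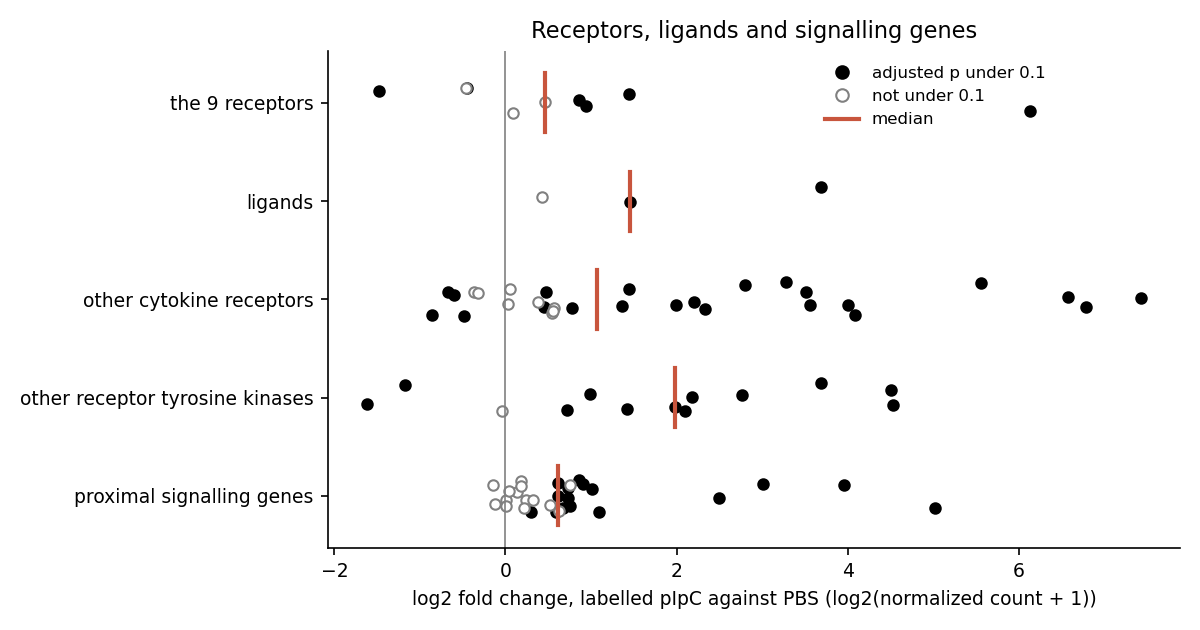
Log2 fold change, libraries labelled pIpC against PBS, of each tested gene in the 9 receptors and in 4 lists around them (filled: adjusted p under 0.1 from limma), with the median of each list as a bar; vertical scatter within a list has no meaning. Medians over all tested genes, those above the count minimum in 1 group only included, are 0.46 for the 9 receptors, 1.45 for ligands, 1.07 for other cytokine receptors, 1.98 for other receptor tyrosine kinases and 0.61 for proximal signalling genes.

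Last, the genes whose pattern over the 6 libraries was most like each receptor were found among the 10486 genes with a mean of at least 100 normalized counts, by Pearson's r on the log2 scale. These values describe 6 libraries that share one split into groups, so a gene that differed between groups has many genes like it. Csf3r had 1149 genes with r above 0.95 (first Sesn3, r = 0.999), Epor 1098 (first Lhfpl2, r = 0.999) and Csf2rb 892 (first Fosl2, r = 0.996). For Il3ra there were 576 (first 1700030K09Rik, r = 0.997), for Flt3 498 (first Rap2a, r = 0.995) and for Csf2ra 461 (first Endov, r = 0.999). The receptors that were not called had fewer: 163 for Kit (first 9330159M07Rik, r = 0.998), 50 for Csf2rb2 (first Dnajb12, r = 0.992) and 5 for Csf1r. The gene most like Csf1r was Tlr13 (r = 0.994), a receptor for bacterial RNA in macrophages, and the next was Ippk (r = 0.958).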

How the data were processed

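RNA-seq was analysed in 6 libraries, 3 labelled PBS and 3 labelled pIpC. The authors deposited 1 table of normalized counts, here treated as a signal. The labels name HISAT2 (version 2.2.1), featureCounts, edgeR and GRCm38, whereas the study's methods name STAR, RSEM and DESeq2. All values (100%) were whole multiples of 1 read within 0.01, which gave reads per gene. Of 55487 genes, 55141 had a symbol in GENCODE M21. No column was left out.

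The main test was limma (version 3.58.1, R 4.3.3) on log2(normalized count + 1), where the added 1 understates changes of low genes, with a variance prior that follows mean intensity, for genes with a mean of at least 10, at a Benjamini-Hochberg adjusted p under 0.1. Alternatives were pseudocounts of 0.1 and 10, a minimum mean of 50 or none, quantile or median scaling, each library left out, a replicate block, no trend, edgeR (version 4.0.16) and DESeq2 (version 1.42.0) on recovered reads, an adjusted p under 0.05, and the beta chains summed. The scripts were tested on simulated data. Genes named were the 9 receptors, Brd9, the ligands, the highest and lowest of each list (1 is not reported here) and the 3 genes most like each receptor. Members and lists were chosen with earlier results of these data known. Lists were counted, not tested. Of T and NK cell markers 7 of 7 tested were higher, all entering through the libraries labelled pIpC (23.8 to 31.1 summed counts in PBS, 293 to 308 in the libraries labelled pIpC). Of stem and progenitor markers 5 were higher (3 entering in that way), 3 lower and 1 not called. The 6 of these above the minimum in both groups had 2 higher, 3 lower and 1 not called, with a median log2 fold change of -0.65. The summed count of this list was lower in the libraries labelled pIpC, at 4087 to 4363 against 14624 to 15665 in PBS.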

Additional observations from a re-analysis of the deposited data

How the results depend on the processing

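Alternatives gave 253 comparisons with the values for the receptors, Brd9, counts, ratios and levels: 249 kept their direction and side of the threshold, or for counts and levels stayed within 1.5 times. A ratio was counted as kept if its direction held and its difference moved by less than the larger of the group SDs. Kit passed without PBS replicate 3 (leaving out each library in turn gave -0.77 to -0.28). Csf2rb2 passed without PBS replicate 1 (0.28 to 0.62). The beta chains summed passed at 0.79, which is no test of Csf2rb2 alone. Csf1r turned to -0.061 under quantile normalization, where the median of all genes was -0.12 and 44.3% of called genes were higher, against 55.1%. The cause was not tested. Receptors called ranged from 6 to 7 and genes called from 4650 (without pIpC replicate 2) to 9783 (without PBS replicate 3). Of 454 comparisons for other named genes, 447 kept their direction and call, and the exceptions were changes of call for Tfrc, Crlf2, Elane and Flt3l (0.66 without PBS replicate 3). With a replicate block, 6095 genes were called (3395 higher, 2700 lower) and no receptor call changed, with Csf2ra the nearest to the threshold (adjusted p = 0.0995). The deviations of same-numbered libraries from their group means correlated at -0.117, 0.143 and 0.041, so the numbers were not taken to pair the libraries. Depth limits Epor most, with 0 to 3 reads in each PBS library.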
